A study of Mus musculus with 12 samples.

Results

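Fibronectin, the tenascins, and the matricellular proteins are the adhesive and regulatory glycoproteins of the extracellular matrix. They were followed here through 10 genes, *Fn1*, *Tnc*, *Tnxb*, *Postn*, *Sparc*, *Sparcl1*, *Thbs1*, *Thbs2*, *Smoc2*, and *Tgfbi*, which were listed by name, by a rule that uses no measured level, although earlier results of these data were known when the list was made. They are 10 of 52636 genes in the deposited table, all protein coding, and all 10 passed the filter on low counts that kept 22320 genes for testing.

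Fibronectin assembles into fibrils at the cell surface, is bound by integrins, and serves as a scaffold for other matrix proteins. Matricellular proteins are secreted into the matrix but mostly regulate it rather than bear load: they alter cell adhesion, collagen fibril assembly, and the availability of growth factors. In the arterial media, SMCs make most of this matrix, and TGF-β, a secreted growth factor that signals through a receptor complex of TGFBR1 and TGFBR2, is a classical inducer of matrix genes.

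SMCs were sorted from thoracic aortas of 12-week-old male mice on a C57BL/6J background. The control group, GFPiSMC, carried *Myh11*-CreERT2, an inducible Cre recombinase driven by a smooth muscle promoter, and the *mT/mG* reporter, which turns on GFP after recombination. The mutant group, Tgfbr1/2iSMCKO, carried the same 2 alleles together with floxed *Tgfbr1* and floxed *Tgfbr2*. Both groups received tamoxifen for 5 days, so exposure to tamoxifen and Cre activity were shared, whereas the mouse line and the deletion of the receptors went together. By the methods, recombination was induced at 11 weeks with 2 mg of tamoxifen a day, except in a subgroup induced at 4 weeks with 1 mg a day. The sorted SMCs are described as taken 1 week after the deletion, the interval of the schedule at 11 weeks. The labels name both schedules for the libraries as a set and assign neither to a library. For each of 3 mice per genotype, GFP+ cells were collected separately from the ascending aorta with the arch and from the descending thoracic aorta, which gave 12 libraries in 4 groups of 3.

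Between 9208 and 20000 sorted cells went into each library, and total counts ranged from 20467027 to 31392396. The 6 smooth muscle markers summed to 33600 to 47500 CPM (counts scaled to the size of the library), and 0 of 6 passed the test between genotypes by edgeR or DESeq2, with 2 at an unadjusted p under 0.05 by edgeR. Markers of other cells were low in comparison. The 8 fibroblast markers summed to 84.7 to 244 CPM in the ascending/arch libraries and to 18.3 to 41.3 CPM in the descending libraries. They differed by segment, and between genotypes 0 of 7 tested passed by edgeR or DESeq2, with 0 at an unadjusted p under 0.05 by edgeR. Among the cardiomyocyte markers *Actc1* was higher in Tgfbr1/2iSMCKO, among 4 markers of perivascular fat *Cidea* was higher, and among 6 endothelial markers *Cdh5* was higher. The cardiomyocyte sums were 8.32 to 30.5 CPM in GFPiSMC and 22.0 to 176 CPM in Tgfbr1/2iSMCKO. They were mostly *Tnnt2* (mean 16.3 CPM in GFPiSMC and 40.8 CPM in Tgfbr1/2iSMCKO) and *Actc1* (1.42 and 24.2 CPM). *Myh6* (0.799 and 1.11 CPM) and *Nppa* (0.0335 and 0.139 CPM) were low in both genotypes. The perivascular fat sums, 26.2 to 38.8 CPM and 74.2 to 112 CPM, were almost wholly *Cidea* (mean 29.9 CPM in GFPiSMC and 96.7 CPM in Tgfbr1/2iSMCKO). *Adipoq* (0.412 and 0.460 CPM), *Plin1* (0.205 and 0.313 CPM), and *Ucp1* (0.110 and 0.161 CPM) had means under 1 CPM in both genotypes. The endothelial sums were 67.4 to 101 CPM and 53.4 to 106 CPM, respectively. They were mostly *Pecam1* (mean 79.3 CPM in GFPiSMC and 72.5 CPM in Tgfbr1/2iSMCKO). The other endothelial means were low, and higher in Tgfbr1/2iSMCKO: *Vwf* (2.51 and 5.74 CPM), *Cdh5* (0.169 and 1.26 CPM), *Tek* (0.951 and 1.64 CPM), *Egfl7* (0.730 and 1.25 CPM), and *Kdr* (0.652 and 0.864 CPM). The part of these cells in the results below was not tested. Counts per gene do not show whether an exon was deleted: *Tgfbr1* had a log2 fold change of 0.10 (SE 0.12, edgeR adjusted p = 0.790), and *Tgfbr2* had one of −0.26 (SE 0.11, edgeR adjusted p = 0.233), between the genotypes.

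Loss of both TGF-β receptors in SMCs was accompanied by lower transcripts of 6 of the 10 genes. Over the 12 libraries, *Sparc*, *Smoc2*, *Fn1*, *Tnxb*, *Postn*, and *Tnc* fell in Tgfbr1/2iSMCKO, by between 2.29-fold (*Tnc*) and 3.99-fold (*Sparc*), and 0 of 10 rose. A gene was called where edgeR's quasi-likelihood test gave an adjusted p under 0.05 and the change exceeded 2-fold. By this rule 1.64% of all genes tested were lower and 1.03% were higher. The median log2 fold change was −1.23 for the 10 genes and 0.04 for all genes. *Thbs1*, *Thbs2*, *Sparcl1*, and *Tgfbi* did not pass. This fit takes the 2 libraries of a mouse as independent. With the mouse as a random effect in limma-voom (consensus correlation 0.158) 4 genes passed, and *Fn1* (adjusted p = 0.053) and *Smoc2* (adjusted p = 0.0501) did not. The share of all genes that passed in that fit is not given here. The calls of *Fn1* and *Smoc2* were each lost in 6 of 19 alternatives, whereas their direction held in each. The levels of *Postn*, *Smoc2*, *Sparc*, and *Tnxb* did not overlap between the 6 libraries of each genotype, a pattern in the lower direction that held for 2.89% of all genes. Together the 10 genes made up 0.858% ± 0.0969 of all counts in GFPiSMC and 0.375% ± 0.0441 in Tgfbr1/2iSMCKO (SD, n = 6 libraries from 3 mice). The highest mutant library, at 0.445%, lay below the lowest control library, at 0.752%. In bulk samples, fewer cells that express a gene and less RNA per cell cannot be told apart.

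**Figure D1:**
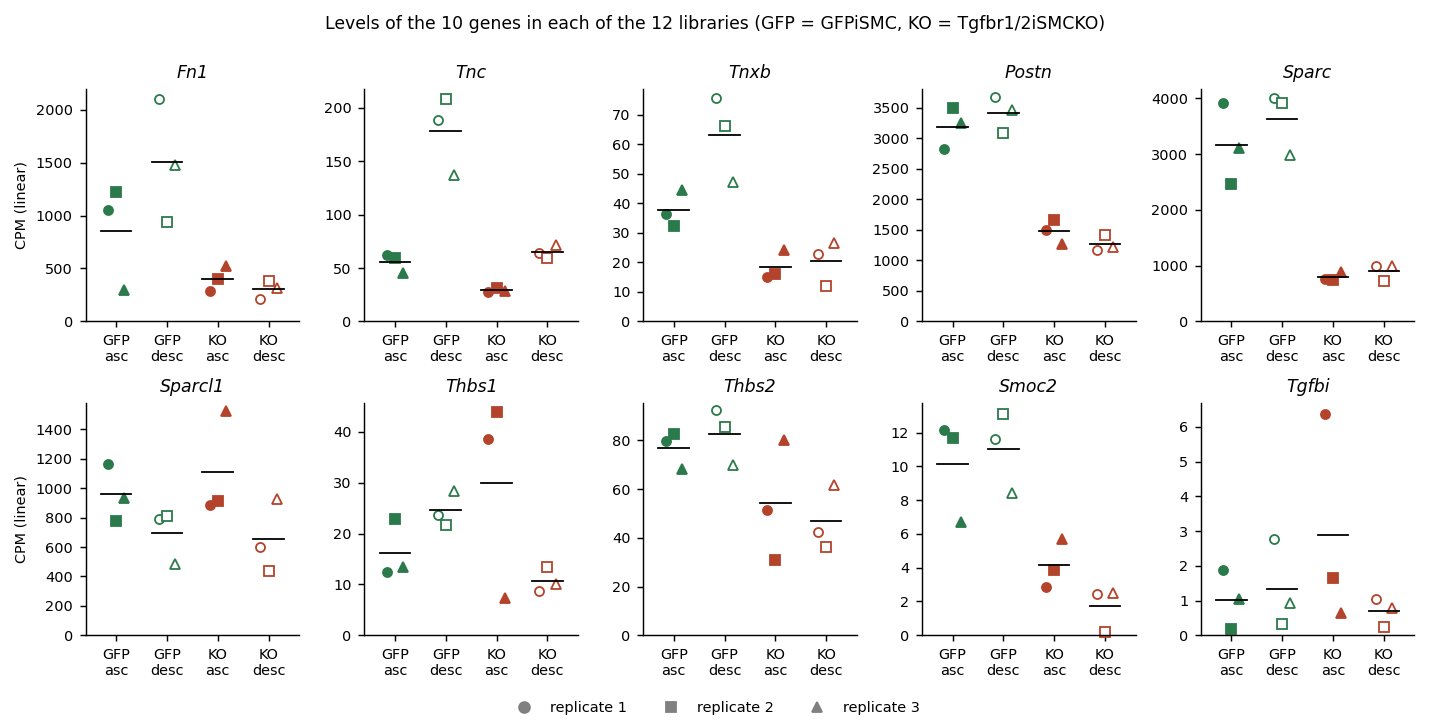
Level of each of the 10 genes in CPM (linear axis from 0) in the 3 libraries of each group; asc is ascending/arch and desc is descending, each symbol is a mouse, and the black line is the mean of 3 libraries. *Sparc* lies at 2466 to 4003 CPM in the 6 GFPiSMC libraries and at 719 to 997 CPM in the 6 Tgfbr1/2iSMCKO libraries, whereas the libraries of *Sparcl1* and *Tgfbi* overlap.

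Sequences upstream of a RefSeq start site are shown for the 4 genes that fell in the combined comparison and for which a RefSeq window was at hand. RefSeq promoter windows matched 6 of the 10 genes. Capitals mark the letters CAGAC or their reverse complement GTCTG, a short motif bound by SMAD proteins, the transcription factors downstream of TGF-β receptors. Each run is 250 bases before a RefSeq start site on GRCm38.p6, written 5′ to 3′ on the strand of the gene. The *Sparc* run lies inside the annotated span of the gene used here (chr11:55394500-55423183), downstream of its annotated 5′ end.

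*Sparc*, chr11:55420081-55420330, minus strand: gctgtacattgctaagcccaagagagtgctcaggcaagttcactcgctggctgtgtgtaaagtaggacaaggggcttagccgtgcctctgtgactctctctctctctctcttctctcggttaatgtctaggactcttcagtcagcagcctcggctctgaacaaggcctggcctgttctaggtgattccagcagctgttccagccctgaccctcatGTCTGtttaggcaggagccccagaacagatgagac

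*Postn*, chr3:54360857-54361106, plus strand: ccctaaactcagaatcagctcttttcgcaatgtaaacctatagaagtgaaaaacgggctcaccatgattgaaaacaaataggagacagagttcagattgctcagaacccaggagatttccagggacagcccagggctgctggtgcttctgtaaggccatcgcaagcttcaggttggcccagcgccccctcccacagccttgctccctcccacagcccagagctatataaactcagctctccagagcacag

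*Tnc*, chr4:64047016-64047265, minus strand: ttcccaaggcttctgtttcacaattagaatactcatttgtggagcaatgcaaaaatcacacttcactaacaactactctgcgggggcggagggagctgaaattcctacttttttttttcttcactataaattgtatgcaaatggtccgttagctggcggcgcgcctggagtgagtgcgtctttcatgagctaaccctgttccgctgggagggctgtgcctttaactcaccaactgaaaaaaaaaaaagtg

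*Tnxb*, chr17:34670285-34670534, plus strand: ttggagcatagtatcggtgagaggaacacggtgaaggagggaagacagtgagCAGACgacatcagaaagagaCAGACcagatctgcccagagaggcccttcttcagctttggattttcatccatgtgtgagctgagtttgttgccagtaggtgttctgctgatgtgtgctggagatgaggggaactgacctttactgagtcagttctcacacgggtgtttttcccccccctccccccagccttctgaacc

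The motif, searched on both strands, was found 1 time in the *Sparc* window and 2 times in the *Tnxb* window. It was not found in the windows of *Postn* and *Tnc* shown here, while a further window of each gene, at an alternative RefSeq start, held it 1 time. Of the genes that did not pass, *Thbs2* and *Tgfbi* each held it 2 times. It occurs in 42.2% of 32851 promoter windows of the same length, which is the background for these counts. The *Tnxb* window also held TGANTCA, the core letters bound by AP-1 factors, which 6.75% of all windows contain. The CArG box, bound by serum response factor in smooth muscle genes, was found in 0 of the 8 windows of the 6 genes and in 1.47% of all windows.

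*Fn1* (chr1:71585520-71653200) encodes fibronectin. In the ascending/arch libraries it reached 1053, 1219, and 295 CPM in GFPiSMC and 283, 403.5, and 521.5 CPM in Tgfbr1/2iSMCKO. These groups overlapped, because GFPiSMC replicate 3 was as low as the mutant libraries. In the descending libraries it reached 2099, 939.6, and 1478 CPM in GFPiSMC and 213, 381, and 319.7 CPM in Tgfbr1/2iSMCKO, and the groups did not overlap. Over both segments *Fn1* fell by 1.70 on the log2 scale (SE 0.36, 3.24-fold, edgeR adjusted p = 0.0137). The fall was 2.31 in the descending segment (SE 0.47, 4.94-fold, edgeR adjusted p = 0.0277). In the ascending/arch the log2 fold change was −1.09 (SE 0.45, edgeR adjusted p = 0.374). The combined value also passed without the GFPiSMC replicate 3 library of that segment, which was chosen after seeing the data. That library was the lowest control in *Fn1*, and leaving it out raises the control mean, so this is no check on the call.

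The *Fn1* call was lost without some mice, unlike the calls of *Sparc* and *Postn*. With a mouse left out, the *Fn1* log2 fold change over both segments stayed between −1.92 and −1.47. Its adjusted p over both segments was 0.0736 without GFPiSMC replicate 1, 0.0576 without GFPiSMC replicate 2, 0.0995 without Tgfbr1/2iSMCKO replicate 1, and 0.0502 without Tgfbr1/2iSMCKO replicate 2. Within the descending segment the call was lost without GFPiSMC replicate 1 (0.167) or without Tgfbr1/2iSMCKO replicate 1 (0.167), 2 (0.0903), or 3 (0.0833). The coefficient of variation of *Fn1* was 50.7% over the 6 GFPiSMC libraries, against 18.8% for *Sparc* and 9.42% for *Postn*. Genes induced while tissue is digested into cells (*Fos*, *Jun*, *Egr1*, *Atf3*, *Ier2*, *Fosb*) summed to 539, 693, and 238 CPM in the ascending/arch and 608, 1016, and 253.5 CPM in the descending GFPiSMC libraries. In Tgfbr1/2iSMCKO they summed to 185, 729, and 205 CPM and to 203, 464, and 185.5 CPM. The GFPiSMC ascending/arch library that was lowest in *Fn1* was also the lowest of the 6 in this sum, but the descending library of the same mouse had a similar sum and 1478 CPM of *Fn1*. Between genotypes 0 of these 6 genes passed by edgeR, 2 had an unadjusted p under 0.05, and 1 (*Fosb*, lower) passed by DESeq2. Their part in the *Fn1* result was not tested. The counts do not distinguish splice forms of *Fn1*, and 292 of its exonic bases are shared with *Apol7d* on the opposite strand, which had 16 to 100 counts.

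The tenascins are large glycoproteins that modulate adhesion. Tenascin-C, encoded by *Tnc* (chr4:63959785-64047015), is typical of remodeling tissue, and tenascin-X, encoded by *Tnxb* (chr17:34670535-34719815), associates with fibrillar collagen. *Tnc* was the gene of the 10 that differed by segment. In GFPiSMC it reached 62.0, 59.5, and 45.1 CPM in the ascending/arch and 188, 208.5, and 137 CPM in the descending libraries. The mutant libraries had 27.2, 31.8, and 28.6 CPM and 64.2, 59.0, and 71.4 CPM. Within each segment every control library lay above every mutant library, although mutant descending libraries reached the level of control ascending/arch libraries.

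*Tnc* fell by 1.19 on the log2 scale in Tgfbr1/2iSMCKO (SE 0.15, edgeR adjusted p = 0.000324), and by 1.45 in the descending segment (SE 0.20, edgeR adjusted p = 0.00215). In the ascending/arch its log2 fold change of −0.93 (SE 0.19) had an edgeR adjusted p of 0.0363 but stayed under 2-fold. *Tnxb* reached 36.3, 32.3, and 44.6 CPM in the ascending/arch and 75.5, 66.2, and 47.3 CPM in the descending GFPiSMC libraries. It reached 15.1, 16.1, and 24.3 CPM and 22.9, 12.0, and 26.6 CPM in Tgfbr1/2iSMCKO, where the highest library lay below the lowest control library. *Tnxb* fell by 1.33 (SE 0.23, edgeR adjusted p = 0.00323), and by 1.62 in the descending segment (SE 0.32, edgeR adjusted p = 0.0226). The ascending/arch log2 fold change was −1.03 (SE 0.31, edgeR adjusted p = 0.170, DESeq2 adjusted p = 0.0418). The descending call of *Tnxb* was lost without any of 4 mice, GFPiSMC replicates 1 and 2 and Tgfbr1/2iSMCKO replicates 1 and 2, with adjusted p from 0.0742 to 0.169. It was also lost when that segment was fitted alone (0.0839).

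Periostin and the TGF-β-induced protein are relatives built of fasciclin domains, which bind integrins and collagen. *Postn* (chr3:54361109-54391037), which encodes periostin, reached 2819, 3491, and 3255 CPM in the ascending/arch and 3680, 3091, and 3455 CPM in the descending GFPiSMC libraries. In the mutants it reached 1492, 1664, and 1269 CPM and 1171, 1413, and 1213 CPM. It had the narrowest spread of the 10 genes, with coefficients of variation of 9.42% and 13.8% in the 2 genotypes, and the groups were far apart. *Postn* fell by 1.27 on the log2 scale (SE 0.10, 2.41-fold, edgeR adjusted p = 6.16e-06). The fall was called in the ascending/arch (1.11, SE 0.14, edgeR adjusted p = 0.00114) and in the descending segment (1.43, SE 0.14, edgeR adjusted p = 0.000175).

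*Tgfbi* (chr13:56609523-56639562) was scarcely detected, with 5 to 186 counts a library. It reached 1.87, 0.172, and 1.03 CPM in the ascending/arch and 2.76, 0.316, and 0.924 CPM in the descending GFPiSMC libraries. The Tgfbr1/2iSMCKO libraries had 6.38, 1.65, and 0.644 CPM and 1.03, 0.247, and 0.776 CPM. The log2 fold change of 0.31 had a 95% interval from −1.42 to 2.04, which includes changes of more than 2-fold in both directions. Its gene symbol records induction by TGF-β, but in these SMCs its level was the lowest of the 10 per exon length over all libraries.

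The SPARC family are calcium-binding secreted proteins that share an extracellular domain. SPARC, or osteonectin, encoded by *Sparc* (chr11:55394500-55423183), binds collagen and takes part in fibril assembly. *Sparc* reached 3926, 2466, and 3110 CPM in the ascending/arch and 4003, 3923, and 2977 CPM in the descending GFPiSMC libraries. In Tgfbr1/2iSMCKO it reached 764, 749, and 885 CPM and 993, 719, and 997 CPM, so the control and mutant libraries were separated by a wide gap. *Sparc* fell by 2.00 on the log2 scale (SE 0.13, edgeR adjusted p = 1.05e-06), which is 3.99-fold with a 95% interval of the remaining level from 0.206 to 0.305 of control. The fall was 1.99 in the ascending/arch (SE 0.20, edgeR adjusted p = 0.000221) and 2.01 in the descending segment (SE 0.20, edgeR adjusted p = 0.000175). It was the gene that passed under every one of 19 alternatives over the 12 libraries, a test against a 2-fold change included.

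*Sparcl1* (chr5:104079111-104113733), which encodes the SPARC-like protein hevin, did not pass. It reached 1165, 776, and 931 CPM in the ascending/arch and 788, 813, and 485 CPM in the descending GFPiSMC libraries. In Tgfbr1/2iSMCKO it reached 887, 914, and 1526 CPM and 602, 440.4, and 929 CPM, with overlap in both segments. The log2 fold change over both segments was 0.06 (SE 0.21, 95% interval −0.38 to 0.51, edgeR adjusted p = 0.939). The ratio of *Sparc* to *Sparcl1* per kilobase of exon within a library, which does not depend on library size, was 2.46 to 4.75 in GFPiSMC and 0.45 to 1.28 in Tgfbr1/2iSMCKO.

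*Smoc2* (chr17:14279506-14404790) encodes a SPARC-related modular protein that binds calcium and regulates growth factor signaling. It was expressed at a low level, with 12.1, 11.7, and 6.69 CPM in the ascending/arch and 11.6, 13.1, and 8.40 CPM in the descending GFPiSMC libraries. In Tgfbr1/2iSMCKO it had 2.85, 3.88, and 5.67 CPM and 2.44, 0.206, and 2.53 CPM. The lowest of these libraries, the descending one of replicate 2, held 5 counts, and the highest of them lay below the lowest control library. *Smoc2* fell by 1.97 (SE 0.48, edgeR adjusted p = 0.0281). The log2 fold changes of −1.30 in the ascending/arch (SE 0.61, edgeR adjusted p = 0.450) and −2.67 in the descending segment (SE 0.64, edgeR adjusted p = 0.0640, DESeq2 adjusted p = 0.000496) did not pass by edgeR. Without GFPiSMC replicate 1, GFPiSMC replicate 2, or Tgfbr1/2iSMCKO replicate 1, the combined adjusted p was 0.123, 0.110, and 0.148. The *Smoc2* call was thus lost without some mice, as that of *Fn1* was. With a mouse left out, the *Smoc2* log2 fold change over both segments stayed between −2.29 and −1.68.

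Thrombospondins 1 and 2 are secreted trimers that bind CD47 and CD36. Thrombospondin 1 can release active TGF-β from its latent complex, and thrombospondin 2 is known for its part in collagen fibril assembly. *Thbs2* (chr17:14665500-14694235) reached 79.6, 82.7, and 68.4 CPM in the ascending/arch and 92.3, 85.4, and 69.7 CPM in the descending GFPiSMC libraries. The mutant libraries had 51.2, 31.1, and 80.3 CPM and 42.5, 36.4, and 61.6 CPM. Of the mutant libraries, only the ascending/arch one of replicate 3 lay within the control range. The log2 fold change was −0.66 (SE 0.21, unadjusted p = 0.00763 and adjusted p = 0.103 by edgeR, adjusted p = 0.0431 by DESeq2), under 2-fold by both tools. It was −0.99 (edgeR adjusted p = 0.00537) without Tgfbr1/2iSMCKO replicate 3 and −0.44 (edgeR adjusted p = 0.234) without Tgfbr1/2iSMCKO replicate 2.

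*Thbs1* (chr2:118111876-118127133) took opposite directions by segment. In the ascending/arch it reached 12.4, 22.9, and 13.5 CPM in GFPiSMC and 38.5, 43.9, and 7.38 CPM in Tgfbr1/2iSMCKO. In the descending segment it reached 23.6, 21.7, and 28.4 CPM in GFPiSMC and 8.61, 13.5, and 10.1 CPM in Tgfbr1/2iSMCKO. Mutant replicates 1 and 2 were thus above the controls in the ascending/arch, mutant replicate 3 was below them, and all 3 mutant libraries were below the controls in the descending segment. The log2 fold changes were 0.88 (SE 0.50, edgeR adjusted p = 0.570) and −1.20 (SE 0.50, edgeR adjusted p = 0.395). The ascending/arch value moved to 0.50 without Tgfbr1/2iSMCKO replicate 2 and to 1.33 without Tgfbr1/2iSMCKO replicate 3, and passed in neither case. The difference of the effects was −2.08 (SE 0.71), with an unadjusted p of 0.0124 and an adjusted p of 1 by edgeR and an adjusted p of 0.723 by DESeq2, and did not pass.

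**Figure D2:**
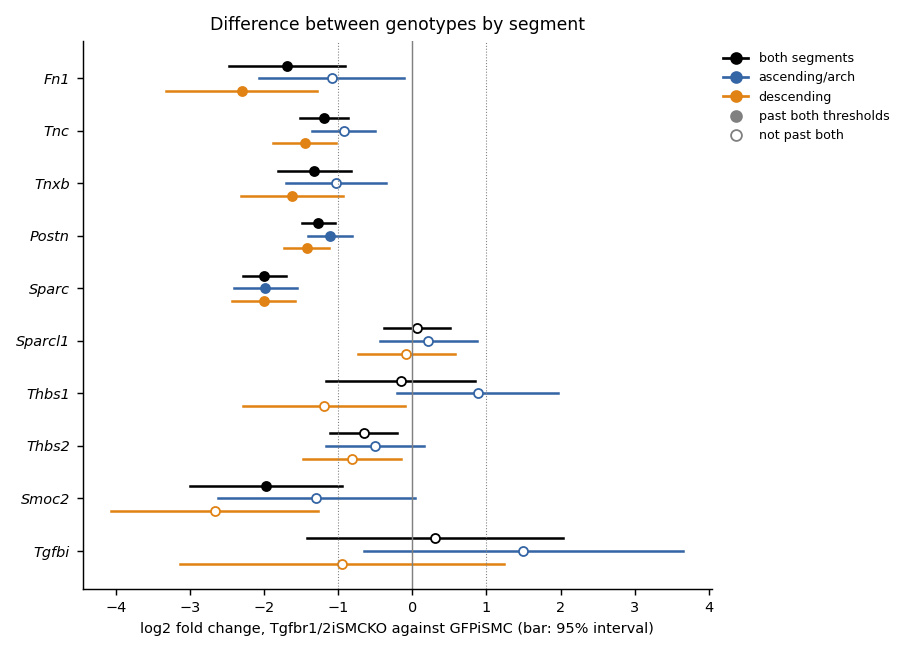
Log2 fold change of Tgfbr1/2iSMCKO against GFPiSMC for each gene over both segments, in the ascending/arch, and in the descending segment, with 95% intervals; filled points passed an adjusted p of 0.05 and a 2-fold change (dotted lines). *Sparc* lies near −2 in each comparison, and the points of *Thbs1* fall on opposite sides of 0, at 0.88 and −1.20.

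Within the segments, 2 of the 10 genes were called lower in the ascending/arch (*Postn*, *Sparc*), where 0.811% of all genes were. In the descending segment 5 were called lower (*Fn1*, *Tnc*, *Tnxb*, *Postn*, *Sparc*), where 0.995% of all genes were. None of the 10 was higher in either segment, at the threshold or at an unadjusted p under 0.05 by edgeR, and 0 were called higher by DESeq2. Control and mutant libraries did not overlap, in the lower direction, for 5 of the 10 genes in the ascending/arch and 8 in the descending segment, against 10.1% and 7.75% of all genes. The larger number of calls in the descending segment does not show a larger effect there. The genotype effect was tested for a difference between segments, and 0 of the 10 genes passed by edgeR or DESeq2, with 1 (*Thbs1*) at an unadjusted p under 0.05 by edgeR. Among all genes 0% passed this test by edgeR and 8 genes did so by DESeq2. For *Fn1* this difference was −1.22 (95% interval −2.59 to 0.16), and for *Sparc* it was −0.02 (95% interval −0.60 to 0.56).

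Between the segments of one genotype, *Tnc* was the gene that passed. In GFPiSMC it was higher in the descending aorta by 1.68 on the log2 scale (SE 0.20, 3.20-fold, edgeR adjusted p = 0.00270), a call in the higher direction that 0.0627% of all genes received. Without GFPiSMC replicate 1 or 2 its adjusted p was 0.0799 and 0.0735. In Tgfbr1/2iSMCKO its log2 difference of 1.15 (SE 0.19) narrowly missed by edgeR (adjusted p = 0.0515) and passed by DESeq2 (adjusted p = 3.53e-05), and 0 of the 10 genes were called by edgeR, where 0.0179% of all genes were called higher. *Tnc* was higher in the descending library of 3 of 3 mice in each genotype. At an unadjusted p under 0.05, *Tnxb* was also higher in the descending GFPiSMC libraries (log2 difference 0.74, edgeR adjusted p = 0.771). *Sparcl1* and *Thbs1* were lower in the descending Tgfbr1/2iSMCKO libraries at that level (−0.76 and −1.48, edgeR adjusted p = 1 and 0.869), and neither passed the adjusted test. The *Sparcl1* difference was −0.42 without the ascending/arch library of Tgfbr1/2iSMCKO replicate 3.

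Per kilobase of exon, the levels of the 10 genes covered more than 3 orders of magnitude in GFPiSMC. There the order was *Sparc* (898 ± 169 CPM per kb), *Postn* (379 ± 35.7), *Sparcl1* (281 ± 75.5), *Fn1* (101 ± 51.2), *Tnc* (15.02 ± 9.16), *Thbs2* (11.4 ± 1.32), *Tnxb* (4.13 ± 1.39), *Thbs1* (3.36 ± 1.03), *Smoc2* (1.53 ± 0.358), and *Tgfbi* (0.313 ± 0.261; SD, n = 6 libraries from 3 mice). In this order the ranges of *Sparc* and *Postn*, of *Thbs2* and *Tnxb*, of *Thbs1* and *Smoc2*, and of *Smoc2* and *Tgfbi* did not overlap, and those of the other neighbors did. In Tgfbr1/2iSMCKO the order began with *Sparcl1* (301 ± 127 CPM per kb), *Sparc* (225 ± 33.0), and *Postn* (158 ± 21.7). The ranges of *Sparcl1* and *Sparc* overlapped there. *Sparc* supplied 37.8% ± 5.04 of the counts of the 10 genes in GFPiSMC and 24% ± 4.78 in Tgfbr1/2iSMCKO, while the share of *Sparcl1* was 9.31% ± 2.73 and 23.8% ± 6.96. The share of *Postn* was 37.1% ± 5.03 and 38.5% ± 6.36.

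**Figure D3:**
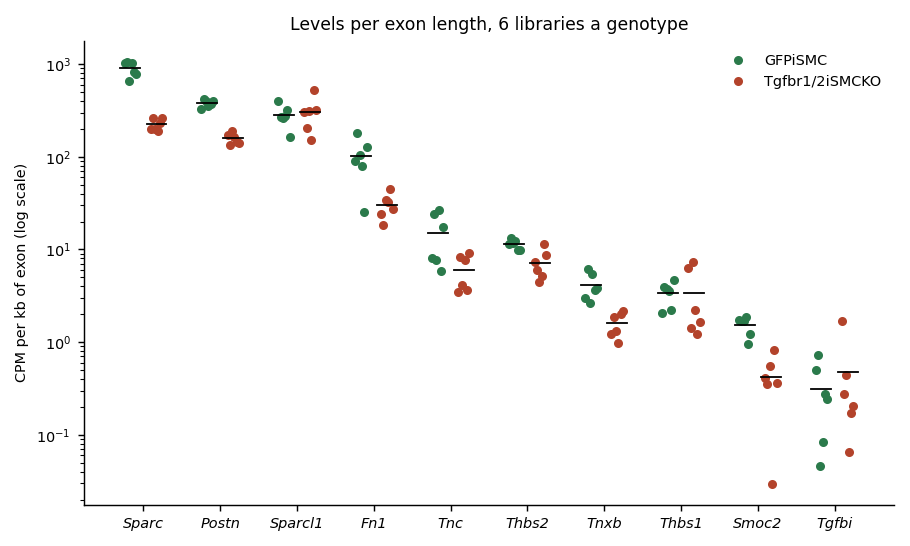
Levels per exon length in CPM per kb (log axis), with a point for each of the 6 libraries of a genotype and a black line at their mean, ordered by the GFPiSMC mean. *Sparc* heads the order at 898 CPM per kb in GFPiSMC and stands at 225 in Tgfbr1/2iSMCKO, where *Sparcl1*, at 301, has the highest mean.

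Among relatives of these genes, 12 in all (other thrombospondins, tenascins, SPARC family members, and stabilins), 11 could be tested. Over the 12 libraries 1 was called lower and 0 higher by edgeR, against 1.64% and 1.03% of all genes. *Fstl1*, a secreted glycoprotein of the SPARC family, had 3182 to 3791 CPM in the 6 GFPiSMC libraries (median 3594) and 1418 to 1712 CPM in the 6 Tgfbr1/2iSMCKO libraries (median 1550), without overlap. It fell by 1.19 (SE 0.08, edgeR adjusted p = 6.98e-07), and was called in both segments. *Thbs4*, another thrombospondin, had a log2 fold change of 1.71 with a wide error (SE 0.92, edgeR adjusted p = 0.411). The median log2 fold change of the 11 was −0.14.

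Of 20 receptor genes for these proteins, 1 was called lower and 0 higher over the 12 libraries by edgeR, against 1.64% and 1.03% of all genes, and their median log2 fold change was −0.37. DESeq2 called 1 over the 12 libraries, 1 in the ascending/arch, and 4 in the descending segment, where the calls went in both directions. Of all 22320 genes it called 842, 604, and 635 in these comparisons, in either direction. *Itgb5*, the β5 integrin subunit, had 213 to 450.4 CPM in GFPiSMC (median 264) and 96.6 to 179 CPM in Tgfbr1/2iSMCKO (median 135), without overlap, and fell by 1.07 (SE 0.20, edgeR adjusted p = 0.00609). *Itgb1*, the subunit shared by the main fibronectin receptors, had a log2 fold change of −0.48 (SE 0.07, edgeR adjusted p = 0.00150), which is under 2-fold. *Itgb3* (−0.88, SE 0.17, edgeR adjusted p = 0.00684) and *Sdc4*, a heparan sulfate co-receptor for fibronectin (−0.64, SE 0.10, edgeR adjusted p = 0.00234), were likewise lower by less than 2-fold. *Itgb8*, whose product partners αv integrin to activate latent TGF-β, was called lower in the ascending/arch (2.84-fold, SE 0.32 on the log2 scale, edgeR adjusted p = 0.0379), where its mean was 34.8 ± 0.857 CPM in GFPiSMC and 12.3 ± 1.99 CPM in Tgfbr1/2iSMCKO (SD, n = 3). In the descending segment the means were 8.29 ± 3.42 and 8.32 ± 1.82 CPM (log2 fold change 0.01, SE 0.31, edgeR adjusted p = 1), and the difference of the effects was 1.51 (SE 0.44, unadjusted p = 0.00500 and adjusted p = 1 by edgeR). Between the segments of GFPiSMC, *Itgb8* was lower in the descending aorta, with a log2 difference of −2.07 (SE 0.32, edgeR adjusted p = 0.0157). *Itgav*, the αv subunit that partners β5 and β8, took the other direction. In the descending segment it had 18.0, 21.9, and 11.9 CPM in GFPiSMC and 128, 11.5, and 167 CPM in Tgfbr1/2iSMCKO, so that 2 of 3 mutant libraries were far above the controls and 1 lay below them. Its log2 fold change there was 2.57 (SE 0.66, edgeR adjusted p = 0.0876, DESeq2 adjusted p = 0.00181), and that in the ascending/arch was −0.10 (SE 0.63, edgeR adjusted p = 0.981). The receptor for fibronectin *Itga5* had a log2 fold change of −0.47 (SE 0.28, edgeR adjusted p = 0.482), and *Cd47* had one of 0.01 (SE 0.10, edgeR adjusted p = 0.985). *Itga8* had the highest level of the 20, with means of 5144 CPM in GFPiSMC and 3955 CPM in Tgfbr1/2iSMCKO. Its log2 fold change of −0.38 did not pass (SE 0.12, unadjusted p = 0.0067 and adjusted p = 0.0951 by edgeR).

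Genes whose pattern across the 12 libraries was most like that of *Sparc*, among 8813 candidates, were *Pcsk5*, a proprotein convertase (Pearson's r = 0.989), *Serpine2*, a serine protease inhibitor (r = 0.986), and *Col18a1*, collagen XVIII (r = 0.983). For *Fn1* they were *Zfp36l1*, an mRNA-binding protein (r = 0.932), *Rictor*, a component of the mTORC2 kinase complex (r = 0.894), and *Schip1* (r = 0.891). With group means removed, r was 0.909, 0.755, and 0.698 for the genes listed with *Sparc* and 0.910, 0.800, and 0.717 for those listed with *Fn1*. These values describe likeness over libraries that share mice, depth, and genotype groups.

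**Figure D4:**
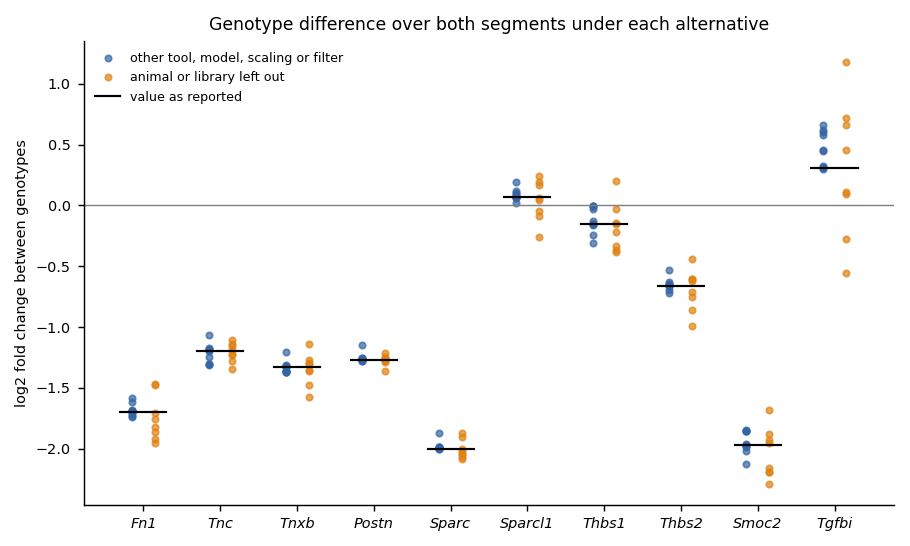
Log2 fold change between genotypes over both segments for each gene (vertical axis) as reported (black line), with other tools, models, scalings, and filters (blue), and with a mouse or a library left out (orange). *Sparc* ranges from −2.09 to −1.87 and *Postn* from −1.36 to −1.15, while *Sparcl1* (−0.26 to 0.24), *Thbs1*, and *Tgfbi* (−0.56 to 1.18) cross 0.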

How the data were processed

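RNA-seq was measured in 12 libraries of sorted SMCs. The authors trimmed reads with Trim Galore (0.5.0), aligned them to GRCm38 with HISAT2 (2.1.0), and quantified GENCODE M15 models with StringTie (1.3.3b). The deposited values are whole-number counts per gene, not scaled between libraries. How StringTie coverage became counts is not given in the sources used here, nor is the use of strand. Symbols and positions came from GENCODE M21 on the same build.

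Counts were filtered (filterByExpr), scaled by TMM, and fitted with edgeR 4.0.16 (quasi-likelihood, R 4.3.3) on genotype and segment, or on 4 group means for comparisons within a segment or genotype. Benjamini-Hochberg adjustment covered 22320 genes. CPM use TMM library sizes. Each SE was taken as the estimate divided by the square root of its F statistic. DESeq2 1.42.0 and limma 3.58.1 served as alternatives, with RLE or no scaling, other filters, a replicate block, and mice left out. The steps were tested on simulated counts. Figures used matplotlib 3.10.9.

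Mice are separate animals, but the fit over 12 libraries treats the 2 libraries of a mouse as independent, so its p-values measure spread between libraries. The limma-voom fit has the mouse as a random effect (consensus correlation 0.158). With group means removed, those libraries correlated at 0.187, −0.242, and 0.0240 (GFPiSMC) and 0.0612, 0.377, and 0.661 (Tgfbr1/2iSMCKO) across 9210 genes. Counting error was not compared with this spread. *Smoc2* and *Tgfbi* had the fewest counts, at 5 to 374 and 5 to 186 a library.

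The members, gene lists, and tests were chosen with earlier results of these data known. Besides the members, *Tgfbr1* and *Tgfbr2*, the text names relatives and receptors past both thresholds over the 12 libraries and the 3 genes most like *Fn1* and *Sparc*. *Itgb1*, *Itgb3*, *Itgb8*, *Sdc4*, *Itga5*, *Itga8*, *Itgav*, *Cd47*, and *Thbs4* were named after their values were seen. Protein sequences were not used here.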

Additional observations from a re-analysis of the deposited data

How the results depend on the processing

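Over the 12 libraries, 19 alternatives were run. *Fn1*, *Tnc*, *Tnxb*, *Postn*, *Sparc*, and *Smoc2* kept their direction in each. The number of the 10 genes called was 6 as reported, 4 with limma-voom, and 1 (*Sparc*) in the test against a 2-fold change. The share of all genes called in each alternative is not given here. These numbers alone therefore do not show whether an alternative was stricter for all genes. *Tnc* lost its call without segment as a term (adjusted p = 0.086). With each mouse left out the number was 4 to 6, in the ascending/arch 2 to 3, and in the descending segment 3 to 5, the lowest without GFPiSMC replicate 1 or Tgfbr1/2iSMCKO replicate 1. Between segments it was 0 to 1 in GFPiSMC. In Tgfbr1/2iSMCKO it was 1 (*Tnc*) instead of 0 with DESeq2, library size only, or RLE factors, and 0 to 1 with a mouse left out. It was 0 throughout for the difference of the effects.

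A replicate block for the replicate number, which marks no pairing between genotypes in the labels, gave 5 of 10 over the 12 libraries (*Smoc2* lost, adjusted p = 0.0589), 2 in the ascending/arch, and 4 in the descending segment (*Fn1* lost, 0.0637). Same-numbered libraries of the 2 genotypes correlated between −0.527 and 0.216. With the mouse as a replicate block in the comparisons of segments, the counts were the reported ones.

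Scaling by library size only moved the median of all genes from 0.04 to 0.16 over the 12 libraries. With it *Sparcl1* in the descending segment was 0.072 and the *Sparc* difference of effects 0.030. Without the ascending/arch library of Tgfbr1/2iSMCKO replicate 3, chosen after seeing the data, *Sparcl1* was −0.089 over the 12 libraries and −0.10 in the ascending/arch, the differences of effects were 0.065 for *Sparc*, 0.021 for *Sparcl1*, and 0.099 for *Thbs2*, and *Thbs2* between segments in Tgfbr1/2iSMCKO was 0.22. Without the ascending/arch library of GFPiSMC replicate 3, also chosen so, *Smoc2* between segments in GFPiSMC was −0.10. None of these values passed a test, and the cause was not tested.

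With a mouse, or 1 of these 2 libraries, left out, signs changed for *Sparcl1* (−0.26 to 0.24 over the 12 libraries, −0.10 to 0.38 in the ascending/arch, −0.44 to 0.14 in the descending segment), *Tgfbi* (−0.56 to 1.18 and, descending, −1.42 to 0.15), and *Thbs1* (−0.38 to 0.20 over the 12 libraries). They also changed for the differences of effects of *Sparc* (−0.14 to 0.18), *Sparcl1* (−0.48 to 0.021), and *Thbs2* (−0.44 to 0.099). Between segments they changed in GFPiSMC for *Postn* (−0.028 to 0.23), *Sparc* (−0.011 to 0.33), and *Smoc2* (−0.10 to 0.24), and in Tgfbr1/2iSMCKO for *Thbs2* (−0.34 to 0.22) and *Tnxb* (−0.068 to 0.43). *Tgfbi* gave no value with a mean of at least 50 counts. Depth limits *Tgfbi* and *Smoc2*, at 5 or more counts a library.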
